A study of Solea senegalensis with 15 samples.

Results

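The genes described here are those of the cilium and the sperm flagellum in the testis of Senegalese sole (Solea senegalensis), a flatfish. They were chosen by symbol alone: axonemal dynein chains (dnah, dnai, dnal), dynein assembly and docking factors (dnaaf, odad), radial spoke and central apparatus genes (rsph and some spag), the nexin-dynein regulatory gene drc3, tektins (tekt), cilia and flagella associated proteins (cfap), intraflagellar transport genes (ift), BBSome genes (bbs), ropn1l, and the remaining genes named spag or spata. The count table lists 108 such genes, of which 105 reached 50 reads in at least 1 fish, out of 21227 genes tested and 28921 listed. The 3 genes under that minimum were cfap107 (at most 14 reads in a fish), spag1a (at most 47) and cfap276 (0 in each fish). Of all tested genes, 39.9% carried an identifier in place of a name, so a choice by symbol can miss genes of these kinds. The set called BBSome genes holds every gene with a bbs symbol, whether or not it codes for a subunit. All fish were males of 2 years, the first captive generation of wild parents, and were injected into the muscle once a week for 6 weeks with recombinant follicle-stimulating hormone of sole (rFsh, 18 µg/kg), with recombinant luteinizing hormone of sole (rLh, 18 µg/kg), or with saline. Of 8 fish injected in each group, 5 per group are in the table, with 1 testis library each. The comparisons ask how testis RNA after each gonadotropin differed from saline, and how the hormones differed from each other. Fish are named below by treatment and number: rFsh 61, 62, 64, 68 and 69, rLh 63, 64, 66, 67 and 68, and saline 63, 64, 66, 67 and 68, and values of single fish are given in that order.

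A motile cilium or sperm flagellum is built around the axoneme, a ring of doublet microtubules that surrounds a central pair. Outer and inner dynein arms slide the doublets past each other, while radial spokes and the central apparatus regulate the dyneins, and nexin-dynein regulatory complexes link neighbouring doublets. The arms are assembled in the cytoplasm with the help of dedicated factors and attach to the doublets through a docking complex. Intraflagellar transport carries parts along the growing axoneme, and the BBSome is an adaptor of that transport for membrane proteins. In the testis, the flagellum grows while round spermatids turn into spermatozoa, although many axonemal genes are already transcribed in spermatocytes. Several genes that carry a spata or spag name, such as spata5, spata13 and spag9a, are known for work outside the flagellum.

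Assigned reads per library were 50722658 to 76174109 in the rFsh group, 53185656 to 64531156 in the rLh group and 67799189 to 109801527 in the saline group, whose libraries were mostly the deeper ones. Values are CPM (the reads of a gene per library total, scaled with TMM factors), which are not corrected for gene length, so levels are compared between fish and not between genes. Of the testis marker genes listed for this genome, 12 of 12 spermatogonial, 10 of 11 spermatocyte and 9 of 10 Sertoli cell genes were tested. These counts include the duplicates gfra1a and gfra1b and the relative sycp2l, whereas nanos2 and meioc were not found under their symbols. The spermatocyte gene sycp3 and the gene listed as fshr had 0 reads in each fish. An absent symbol or 0 reads does not show that a gene was silent, since copies under an identifier were not looked for. Of the spermatid marker list, only tbpl1 could be tested (odf3b had at most 9 reads), and 8 genes of a wider list of sperm and spermatid genes were tested. Of the 105 genes, 99 lie on linkage groups of the assembly IFAPA_SoseM_1, and 22 of those share positions with another annotated gene, which leaves their counts uncertain where reads were assigned without strand. In whole testis, a higher level of a transcript cannot be told apart from a larger share of cells that carry it.

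No cilium or flagellum gene passed an adjusted p of 0.05 in edgeR's quasi-likelihood test over the 15 fish. After rFsh, 0 of 105 genes passed (0.0471% of all tested genes did), and at an unadjusted p under 0.05, 16 were higher (15.2%, against 9.53% of all tested genes) and 5 lower (4.76%, against 7.63%) than in saline. DESeq2 on the same fish called 3 genes after rFsh, cfap43, cfap97 and dnah10, all higher, which is 2.86% of the genes against 2.93% of all tested genes. After rLh, edgeR passed 0 of 105 genes (0% of all tested genes), with 12 higher (11.4%, against 5.89%) and 3 lower (2.86%, against 7.31%) at an unadjusted p under 0.05, and DESeq2 called 0 (0.221% of all tested genes). In rLh against rFsh, edgeR passed 0 of 105 (0% of all tested genes), with 0 higher (4.96% of all tested genes) and 5 lower (4.76%, against 4.95%) at an unadjusted p under 0.05, and DESeq2 called 0 (0.636%). Single fish moved these counts: edgeR passed 6 genes after rFsh without rFsh 69 (cfap43, cfap97, dnah10, dnah2, dnah7 and spata5, with 4.72% of all tested genes) and 6 without saline 68 (cfap43, cfap97, dnah10, dnai1.2, dnai3 and spag6, with 2.99%). Counts at an unadjusted p under 0.05 were 13 without rFsh 68 in place of 21 after rFsh (12.8% and 17.2% of all tested genes). After rLh, they were 9 without saline 66 and 23 without saline 68 in place of 15 (9.19%, 19.1% and 13.2%). Between the hormones, they were 10 without rFsh 69, 9 without rLh 68 and 2 without rLh 63 in place of 5 (17.3%, 12.1%, 7.02% and 9.91%). The share of all tested genes moved in the same direction each time. On the 12 fish whose mean counts match the study's tables (without rFsh 62, rLh 68 and saline 68), edgeR passed 0 genes after rFsh (0.0425% of all tested genes), after rLh (0%) and between the hormones (0.0142%), whereas DESeq2 called 10 after rFsh (9.52%, against 5.87% of all tested genes), 12 after rLh (11.4%, against 10.5%) and 1 between the hormones (0.952%, against 3.19%). The 10 were bbs9, cfap43, cfap97, dnah10, dnah6, dnah7, dnai1.2, dnai3 and spag6, all higher, and spata5l1, which was lower. The 12 were cfap43, cfap97, dnah5, dnah7, dnai1.2, dnai3, dnal1, spag6, spata13 and spata18, all higher, and ift74 and spag17, which were lower, and the 1 between the hormones was dnaaf9, lower after rLh. At an unadjusted p under 0.05 in edgeR on those fish, 16 genes were higher and 4 lower after rFsh (10.8% and 9.03% of all tested genes), 18 higher and 5 lower after rLh (11.2% and 11.3%), and 4 higher and 7 lower between the hormones (8.32% and 7.86%).

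The genes lay above their saline level more often than tested genes did as a whole. The fold change was positive in 74 of 105 genes after rFsh (70.5%, against 51.1% of all tested genes) and in 65 after rLh (61.9%, against 51.6%), with medians of 0.08 and 0.05 on the log2 scale, against 0.01 for all tested genes in both comparisons. Their summed level was 3973 ± 275 CPM after rFsh, 3857 ± 215 CPM after rLh and 3678 ± 205 CPM in saline fish (SD, n = 5 each), and the ranges of the groups overlapped. Groups that did not overlap were rare: 1 gene lay higher and 1 lower throughout after rFsh (0.876% and 0.843% of all tested genes), 3 higher and 0 lower after rLh (0.961% and 1.14%), and 0 either way between the hormones (0.829% and 0.707%). These shares were not tested, since genes of several roles varied together over the fish. Over all 5460 pairs of the genes, the median Pearson r was only 0.059. The mean log2 deviation of the genes was lower in deeper libraries (Pearson r = -0.678 with the log2 library total, over 15 fish). The part of depth in the result was not tested. Both hormone groups are set against the same saline fish, so their fold changes are not independent.

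**Figure D1:**
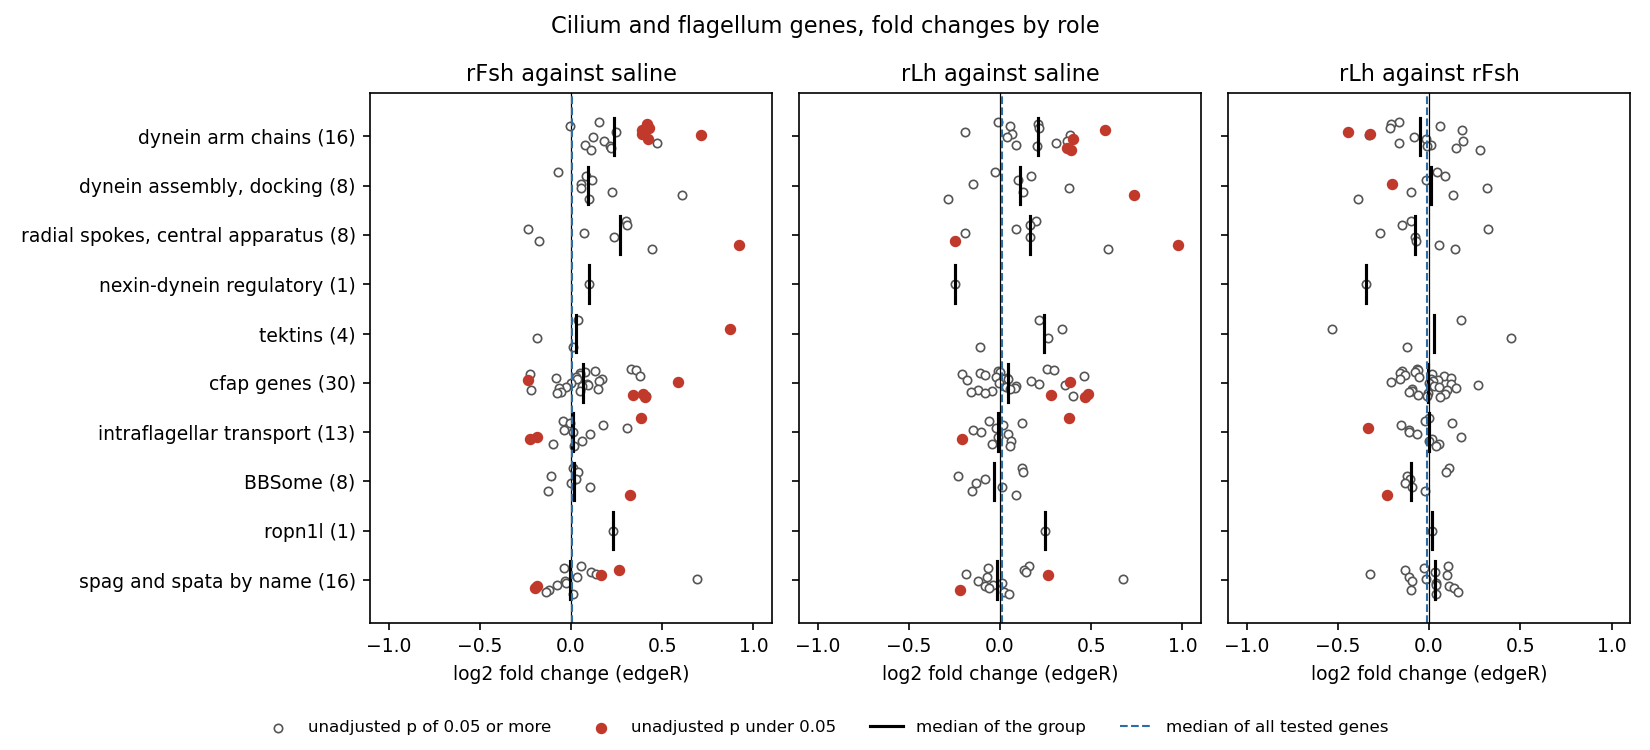
The log2 fold change (x axis) of each cilium and flagellum gene by role (rows, number of genes in brackets) in the 3 comparisons, red points having an unadjusted edgeR p under 0.05, with the median of the role (bar) and of all tested genes (dashed line). Dynein arm chains lie mostly right of zero in both comparisons with saline, while intraflagellar transport and BBSome genes lie on both sides, with medians near zero.

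The dynein arm chains were the role with the most genes at an unadjusted p under 0.05 after rFsh, 6 higher against 4 higher after rLh (9.53% and 5.89% of all tested genes were higher), and 0 lower. Of 16 chains, 15 were above saline after rFsh and 14 after rLh (51.1% and 51.6% of all tested genes), and the median fold changes were 0.23 and 0.21 on the log2 scale. Among the 9 heavy chains, which carry the motor, 8 were positive after rFsh with a median of 0.39, against 7 with a median of 0.07 after rLh. The 7 intermediate and light chains, which anchor and tune the motor, were all positive in both comparisons, the median being 0.22 after rFsh and 0.37 after rLh.

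The heavy chain of the inner arms dnah10 (linkage group 5, 8256582 to 8286790) had the smallest p of the genes after rFsh. It had 64.4, 64.8, 62.6, 58.7 and 45.6 CPM after rFsh, 44.5, 50, 54.4, 56.1 and 51.2 CPM after rLh, and 44, 41, 40.9, 45 and 51.2 CPM in saline fish. Apart from rFsh 69, every rFsh fish was above every saline fish. The log2 fold change was 0.41 ± 0.10 (SE) after rFsh (edgeR adjusted p = 0.118, DESeq2 adjusted p = 0.015) and 0.21 ± 0.10 after rLh (edgeR adjusted p = 0.387). The inner arm heavy chain dnah7 (linkage group 2, 7137205 to 7209027) had 70.5, 129, 87.3, 65.4 and 53.4 CPM after rFsh, 54.2, 95, 65.8, 54.1 and 53.1 CPM after rLh, and 51.1, 37.5, 45.6, 47.9 and 65 CPM in saline fish. A single fish in each hormone group stood high, rFsh 62 and rLh 64, and the groups overlapped. Its log2 fold change was 0.71 ± 0.22 after rFsh (edgeR adjusted p = 0.162) and 0.38 ± 0.22 after rLh (edgeR adjusted p = 0.456).

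The remaining heavy chains did not share 1 pattern over the fish. The inner arm heavy chain dnah6 (linkage group 6, 17748689 to 17801048) had 52.6, 56.5, 49, 52.2 and 79.2 CPM after rFsh, 46.5, 45.1, 45.5, 44.8 and 49.4 CPM after rLh, and 45.1, 36.6, 42.3, 47 and 50 CPM in saline fish, with rFsh 69 far above the others. The rFsh and saline fish overlapped only through rFsh 64 and saline 68, at a log2 fold change of 0.39 ± 0.12 (edgeR adjusted p = 0.151), or 0.25 without rFsh 69, while rLh lay at 0.07 ± 0.12 (edgeR adjusted p = 0.83). The inner arm heavy chain dnah2 (linkage group 3, 9326560 to 9371730) had 95.6, 96.7, 114, 95.9 and 50.2 CPM after rFsh, 68.6, 83.5, 72.8, 90.4 and 73.9 CPM after rLh, and 64, 48.4, 68.3, 78.7 and 76.1 CPM in saline fish. Here rFsh 69 was the lowest of its group, below 4 of the 5 saline fish, whereas the other 4 rFsh fish were above each saline fish, and the log2 fold change was 0.43 ± 0.18 (edgeR adjusted p = 0.235). The outer arm heavy chain dnah5 (linkage group 9, 19480293 to 19528012, sharing positions with an unnamed gene) had 29.4, 37.2, 25, 28.7 and 34.7 CPM after rFsh, 27.5, 48.9, 45.9, 28.2 and 24.9 CPM after rLh, and 26.3, 24.8, 20.5, 23.1 and 23.5 CPM in saline fish. It was highest in rLh 64 and rLh 66, with log2 fold changes of 0.39 ± 0.18 after rFsh (edgeR adjusted p = 0.275) and 0.57 ± 0.18 after rLh (edgeR adjusted p = 0.344). The heavy chains dnah1, dnah9l and dnah12 had log2 fold changes of 0.15, 0.12 and -0.01 after rFsh, and -0.01, 0.04 and 0.05 after rLh. The heavy chain dnah5l was above saline after rFsh and had the lowest fold change of the heavy chains after rLh, at -0.19 on the log2 scale.

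Of the intermediate and light chains, 1 of 7 had an unadjusted p under 0.05 after rFsh and 3 after rLh (17.2% and 13.2% of all tested genes, in either direction). dnai1.2, a copy of the outer arm intermediate chain gene dnai1 (linkage group 4, 4464154 to 4504651, sharing positions with an unnamed gene), had 33.1, 44.6, 32.6, 31.8 and 41.9 CPM after rFsh, 31.5, 35.8, 34.3, 43.2 and 36.7 CPM after rLh, and 22.4, 28.2, 21.2, 28.3 and 37.5 CPM in saline fish. Only saline 68 reached the hormone-treated fish, and the log2 fold change was 0.42 ± 0.15 after rFsh (edgeR adjusted p = 0.187) and 0.40 ± 0.15 after rLh (edgeR adjusted p = 0.344). The outer arm light chain dnal1 (linkage group 16, 88676 to 91377) had 14.2, 16.8, 15.8, 14.3 and 11.5 CPM after rFsh, 14.2, 18, 17.3, 16.3 and 14.4 CPM after rLh, and 11.9, 12.9, 10.6, 12.5 and 14.5 CPM in saline fish. Its rLh and saline fish overlapped only through saline 68, with a log2 fold change of 0.37 ± 0.12 after rLh (edgeR adjusted p = 0.344) and 0.22 ± 0.12 after rFsh (edgeR adjusted p = 0.35). The inner arm light chain dnali1, the chain gene with the lowest CPM, averaged 1.62 ± 0.192 CPM after rFsh, 1.97 ± 0.263 CPM after rLh and 1.53 ± 0.22 CPM in saline fish (SD, n = 5 each). It shares positions with gnl2, and its log2 fold change after rLh was 0.39 ± 0.15 (edgeR adjusted p = 0.352).

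**Figure D2:**
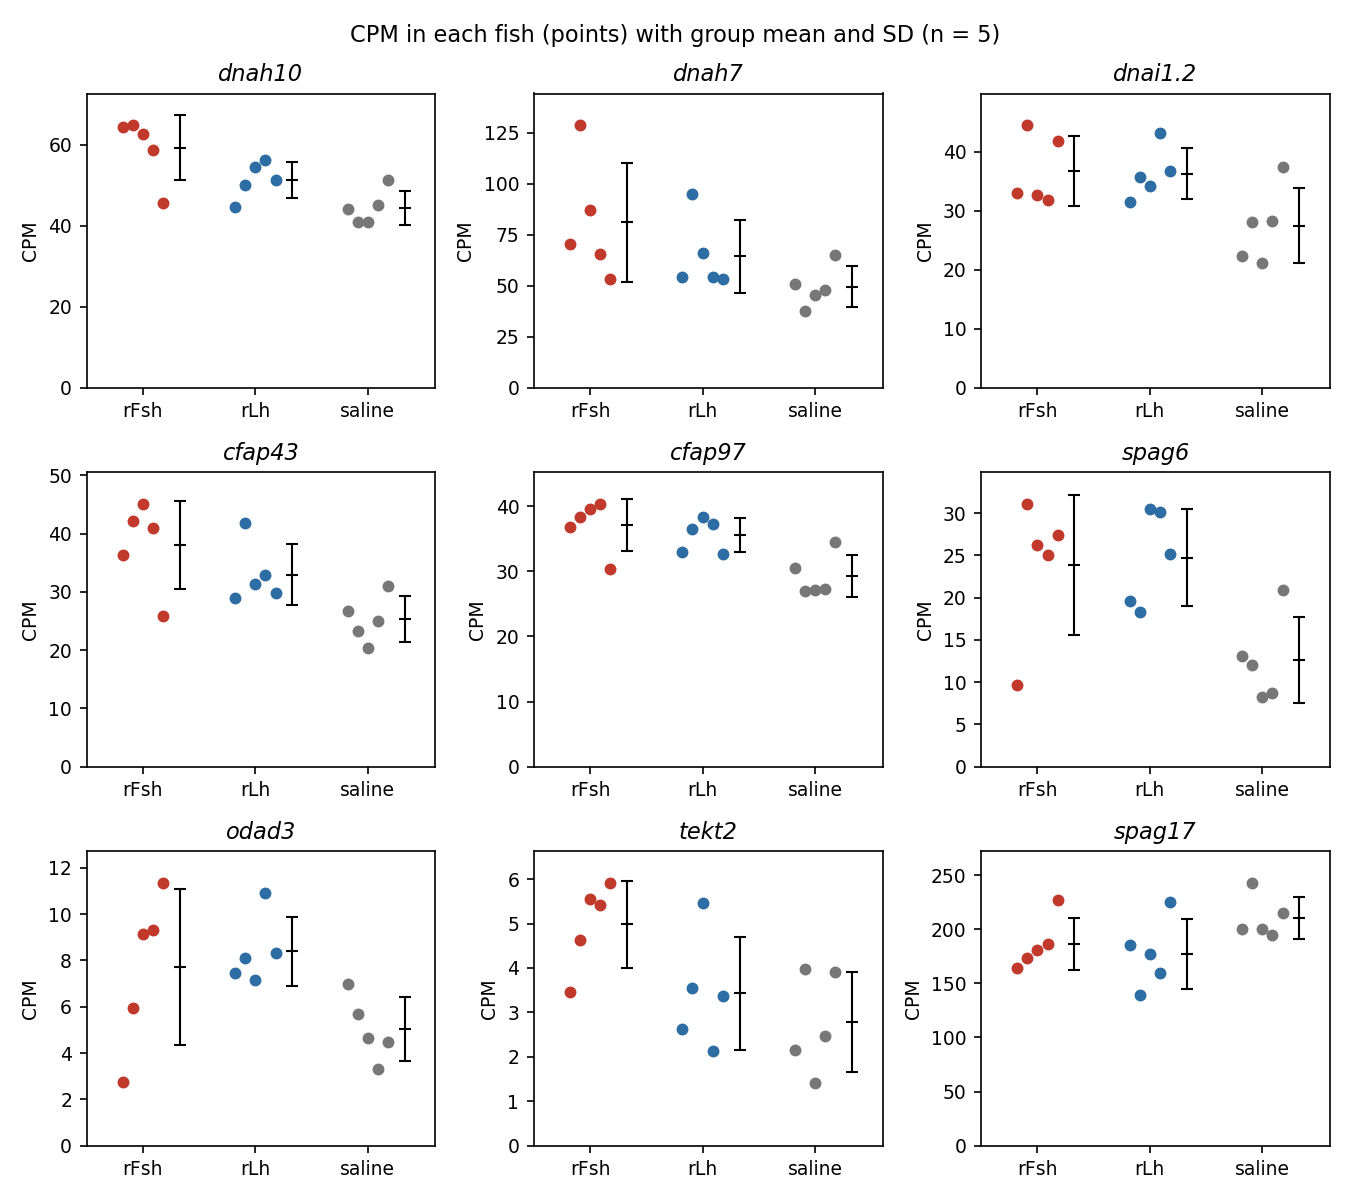
CPM (y axis, from 0) of 9 genes in each fish (points) of the rFsh, rLh and saline groups, with the group mean and SD beside the points (n = 5). Single fish bridge the groups in several panels, such as rFsh 69 for dnah10, cfap43 and cfap97 and rFsh 61 for spag6.

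Of the 8 genes for factors that assemble or dock the dynein arms, 0 had an unadjusted p under 0.05 after rFsh and 1 after rLh. The shares of all tested genes were 17.2% and 13.2%, in either direction. Of the 4 assembly factors, none had an unadjusted p under 0.05 against saline in either hormone group, with median log2 fold changes of 0.07 after rFsh and 0.04 after rLh. The assembly factor dnaaf2 (linkage group 16, 4322552 to 4325315, sharing positions with lrr1) averaged 59.2 ± 12.4 CPM after rFsh, 62.9 ± 11.8 CPM after rLh and 56 ± 13.4 CPM in saline fish (SD, n = 5 each), and dnaaf9, known from the packaging of outer arms in Tetrahymena, averaged 187 ± 14.1 CPM after rFsh, 163 ± 16.7 CPM after rLh and 179.9 ± 16.5 CPM in saline fish. Of the 4 docking genes, only odad3 had an unadjusted p under 0.05 against saline. odad3 (linkage group 6, 4494082 to 4502057) had 2.76, 5.94, 9.13, 9.32 and 11.3 CPM after rFsh, 7.46, 8.08, 7.16, 10.9 and 8.31 CPM after rLh, and 6.99, 5.68, 4.63, 3.31 and 4.48 CPM in saline fish. All 5 rLh fish were above all 5 saline fish, which held for 3 of 105 genes (2.86%, against 0.961% of all tested genes), while rFsh 61 was the lowest of the 15. The log2 fold change was 0.74 ± 0.29 after rLh (edgeR adjusted p = 0.352) and 0.61 ± 0.29 after rFsh (edgeR adjusted p = 0.301). The docking gene odad4, the lowest of the role with at most 92 reads in a fish and 50 reads in no rLh fish, averaged 0.788 ± 0.385 CPM after rFsh, 0.60 ± 0.134 CPM after rLh and 0.734 ± 0.173 CPM in saline fish.

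Among radial spoke and central apparatus genes, spag6 had the largest fold changes of the 105 genes against saline, and spag17 lay on the other side. spag6, a central apparatus protein needed for motile sperm in mouse, is annotated on an unplaced scaffold. It had 9.65, 31.1, 26.2, 25.1 and 27.4 CPM after rFsh, 19.6, 18.3, 30.5, 30.2 and 25.1 CPM after rLh, and 13.2, 12, 8.21, 8.7 and 21 CPM in saline fish. Excluding rFsh 61, each rFsh fish was above each saline fish, and among rLh fish only rLh 63 and rLh 64 were below saline 68. The log2 fold change was 0.92 ± 0.29 after rFsh (edgeR adjusted p = 0.168, DESeq2 adjusted p = 0.0534) and 0.98 ± 0.29 after rLh (edgeR adjusted p = 0.344, DESeq2 adjusted p = 0.0974). The central apparatus gene spag17 (linkage group 3, 16214031 to 16254057), taken as the marker of this set, had 164, 174, 180.5, 187 and 227 CPM after rFsh, 185, 139, 177, 159.7 and 225 CPM after rLh, and 200.3, 243, 200.01, 194 and 215 CPM in saline fish. Its log2 fold change was -0.18 ± 0.12 after rFsh (edgeR adjusted p = 0.453) and -0.25 ± 0.12 after rLh (edgeR adjusted p = 0.379), and the hormone groups overlapped saline only through rFsh 69 and rLh 68. On the 12 fish, DESeq2 gave spag17 a log2 fold change of -0.35 after rLh, at an adjusted p of 0.04998, where edgeR gave -0.33 and an adjusted p of 0.123. The radial spoke gene rsph10b averaged 80.1 ± 16.2 CPM after rFsh, 74.7 ± 11.3 CPM after rLh and 65.1 ± 8.66 CPM in saline fish (SD, n = 5 each), with a log2 fold change after rFsh of 0.30 ± 0.14 (edgeR adjusted p = 0.297). rsph3, the lowest of the role by CPM, averaged 3.49 ± 0.603 CPM after rFsh, 4.36 ± 1.01 CPM after rLh and 4.02 ± 1.47 CPM in saline fish, with edgeR adjusted p = 0.639 after rFsh and 0.886 after rLh.

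The regulatory complex gene drc3 and the tektins, which are filaments within the doublet wall, varied widely between fish. drc3 (linkage group 19, 12636344 to 12643656, sharing positions with an unnamed gene) had 2.34, 1.31, 4.51, 2.27 and 6.31 CPM after rFsh, 3.2, 2.09, 1.93, 2.16 and 4.19 CPM after rLh, and 2.6, 4.0, 3.55, 3.69 and 2.14 CPM in saline fish, a spread that covered all groups. Of 4 tektins, only tekt2 (linkage group 20, 14130452 to 14136779) had an unadjusted p under 0.05, after rFsh (17.2% of all tested genes, in either direction). tekt2 had 3.45, 4.62, 5.54, 5.41 and 5.91 CPM after rFsh, 2.62, 3.55, 5.46, 2.13 and 3.36 CPM after rLh, and 2.15, 3.99, 1.42, 2.47 and 3.92 CPM in saline fish. Among rFsh fish, only rFsh 61 was below the highest saline fish, and the log2 fold change was 0.87 ± 0.28 after rFsh (edgeR adjusted p = 0.171) and 0.34 ± 0.30 after rLh (edgeR adjusted p = 0.623). tekt1 ranged over 39.7 to 86 CPM after rFsh, 56.7 to 89 CPM after rLh and 43.3 to 88.1 CPM in saline fish, and tekt4 over 4.79 to 7.25 CPM after rFsh, 4.57 to 8.97 CPM after rLh and 4.78 to 10.8 CPM in saline fish. tekt3, with at most 67 reads in a fish and 50 reads in saline fish alone, averaged 0.368 ± 0.164 CPM after rFsh, 0.50 ± 0.117 CPM after rLh and 0.398 ± 0.21 CPM in saline fish.

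Of the 30 cfap genes, 4 were higher and 1 lower at an unadjusted p under 0.05 after rFsh (9.53% and 7.63% of all tested genes), and 4 were higher and 0 lower after rLh (5.89% and 7.31%), with median log2 fold changes of 0.07 and 0.04. cfap43 (linkage group 15, 3066659 to 3090994, sharing positions with sfr1), an axonemal protein whose loss gives malformed sperm flagella in mouse and human, had 36.4, 42.3, 45.1, 41 and 25.8 CPM after rFsh, 28.9, 41.8, 31.3, 33 and 29.9 CPM after rLh, and 26.8, 23.3, 20.5, 25.1 and 31 CPM in saline fish. As in dnah10, rFsh 69 was the low fish of its group and saline 68 the high one. The log2 fold change was 0.59 ± 0.15 after rFsh (edgeR adjusted p = 0.118, DESeq2 adjusted p = 0.018) and 0.38 ± 0.15 after rLh (edgeR adjusted p = 0.352). cfap97 (linkage group 6, 22770082 to 22779578, sharing positions with slc25a4) had 36.8, 38.4, 39.5, 40.3 and 30.4 CPM after rFsh, 33, 36.6, 38.4, 37.3 and 32.7 CPM after rLh, and 30.5, 27, 27.1, 27.3 and 34.5 CPM in saline fish. Again rFsh 69 and saline 68 bridged the groups, at log2 fold changes of 0.34 ± 0.09 after rFsh (edgeR adjusted p = 0.134, DESeq2 adjusted p = 0.0356) and 0.28 ± 0.09 after rLh (edgeR adjusted p = 0.344).

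Other cfap genes differed less or with a wider spread. cfap92 (linkage group 4, 13548056 to 13560168) had 9.16, 6.38, 8.25, 10.8 and 5.37 CPM after rFsh, 8.04, 8.18, 7.66, 10 and 8.48 CPM after rLh, and 7.54, 4.58, 6.0, 6.37 and 5.67 CPM in saline fish, so that every rLh fish was above every saline fish (log2 fold change 0.48 ± 0.18, edgeR adjusted p = 0.344). cfap99 (linkage group 16, 5034061 to 5040288) ranged over 32.8 to 62.9 CPM after rFsh, 43.4 to 66.2 CPM after rLh and 32.4 to 54.3 CPM in saline fish, with a log2 fold change of 0.46 ± 0.18 after rLh (edgeR adjusted p = 0.352) and 0.41 ± 0.18 after rFsh (edgeR adjusted p = 0.27). Means of both genes were above saline in either hormone group. The doublet protein gene cfap53 averaged 135 ± 40.8 CPM after rFsh, 162 ± 24.3 CPM after rLh and 127 ± 13 CPM in saline fish (SD, n = 5 each), and cfap70, known for a part in ciliary beating in mouse, averaged 179.7 ± 40.4 CPM after rFsh, 169 ± 25.4 CPM after rLh and 162 ± 26.7 CPM in saline fish. Differences from saline had edgeR adjusted p = 0.84 after rFsh and 0.423 after rLh for cfap53, and 0.667 and 0.902 for cfap70. cfap73, the lowest of the role by CPM, had 0.363 to 0.947 CPM after rFsh, 0.531 to 0.869 CPM after rLh and 0.504 to 0.922 CPM in saline fish.

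Intraflagellar transport genes differed from saline in both directions. Of 13 transport genes, 1 was higher and 2 lower at an unadjusted p under 0.05 after rFsh (9.53% and 7.63% of all tested genes), and 1 higher and 1 lower after rLh (5.89% and 7.31%), with medians of 0.01 and -0.01 on the log2 scale. The higher one was in both cases ift122 (linkage group 11, 2845844 to 2882567), a part of the complex for transport back to the cell body, which averaged 64.5 ± 13.7 CPM after rFsh, 64.4 ± 8.51 CPM after rLh and 49.5 ± 9.87 CPM in saline fish (SD, n = 5 each; edgeR adjusted p = 0.245 after rFsh and 0.355 after rLh). ift57 (linkage group 1, 20584663 to 20590443), of the outward transport complex, had 11.6, 12.6, 11.2, 11.2 and 11.6 CPM after rFsh, 13.2, 15.3, 13.2, 12.2 and 11.7 CPM after rLh, and 12.7, 14, 13.3, 13.5 and 12.8 CPM in saline fish. The rFsh fish were all below the saline fish, the only such gene of 105 (0.952%, against 0.843% of all tested genes), and the log2 fold change was -0.19 ± 0.09 (edgeR adjusted p = 0.277). ift74, named here after its values were seen and sharing positions with an unnamed gene, averaged 43.4 ± 4.17 CPM after rFsh, 43.9 ± 1.37 CPM after rLh and 50.7 ± 6.86 CPM in saline fish (edgeR adjusted p = 0.233 after rFsh and 0.359 after rLh). The outward transport gene ift172 averaged 67.5 ± 9.6 CPM after rFsh, 73.7 ± 5.91 CPM after rLh and 67.8 ± 15.6 CPM in saline fish (edgeR adjusted p = 0.985 after rFsh and 0.72 after rLh).

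Of the 8 genes with a bbs symbol, bbs10 and bbs12 among them, only bbs9 had an unadjusted p under 0.05 after rFsh (17.2% of all tested genes, in either direction). bbs9 (linkage group 9, 5595046 to 5776159) had 31.3, 28.1, 28.5, 27.3 and 31.2 CPM after rFsh, 22.6, 26.4, 27.5, 19.5 and 28.8 CPM after rLh, and 25, 22.7, 21, 24 and 24.6 CPM in saline fish. All rFsh fish were above all saline fish, the only such gene of 105 (0.952%, against 0.876% of all tested genes), while the rLh fish spread over both groups. The log2 fold change was 0.32 ± 0.10 after rFsh (edgeR adjusted p = 0.161) and 0.09 ± 0.10 after rLh (edgeR adjusted p = 0.707). The subunit gene bbs4 averaged 22.3 ± 2.41 CPM after rFsh, 20.4 ± 1.99 CPM after rLh and 22.3 ± 1.11 CPM in saline fish (SD, n = 5 each). The subunit gene bbs7 averaged 6.71 ± 0.412 CPM after rFsh, 6.6 ± 0.592 CPM after rLh and 7.3 ± 0.551 CPM in saline fish. The edgeR adjusted p after rFsh was 0.996 for bbs4 and 0.534 for bbs7.

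ropn1l, which binds A-kinase anchoring proteins in the mammalian sperm tail, averaged 42.7 ± 9.17 CPM after rFsh, 43.3 ± 10.6 CPM after rLh and 36.5 ± 9.15 CPM in saline fish (SD, n = 5 each), differences within the spread between fish (edgeR adjusted p = 0.585 after rFsh and 0.6 after rLh). The 16 genes that carry a spag or spata name alone were evenly split, 8 above and 8 below saline after either hormone. spata13 (linkage group 1, 31126615 to 31143231), a guanine nucleotide exchange factor of small GTPases, had 34.9, 38.4, 29.8, 33.5 and 38 CPM after rFsh, 35.6, 40.6, 38.7, 37.8 and 34 CPM after rLh, and 31.9, 30.6, 31.9, 30.6 and 30.8 CPM in saline fish. All rLh fish were above all saline fish, whose own spread was small, and the log2 fold change was 0.26 ± 0.08 (edgeR adjusted p = 0.344). The AAA ATPase gene spata5, whose yeast counterpart acts in ribosome maturation, averaged 68.5 ± 8.82 CPM after rFsh, 73.7 ± 3.7 CPM after rLh and 78 ± 2.35 CPM in saline fish (SD, n = 5 each). Its relative spata5l1 averaged 17.9 ± 0.534 CPM after rFsh, 19.7 ± 1.46 CPM after rLh and 20.5 ± 1.43 CPM in saline fish. After rFsh, the edgeR adjusted p was 0.235 for spata5 and 0.219 for spata5l1. spag9a, a scaffold of kinases and motors, averaged 124 ± 20.7 CPM after rFsh, 113 ± 13.1 CPM after rLh and 103 ± 13.5 CPM in saline fish, and spata1 averaged 2.11 ± 0.51 CPM after rFsh, 1.69 ± 0.319 CPM after rLh and 1.91 ± 0.161 CPM in saline fish.

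Between the hormones, rLh against rFsh, no gene was higher and 5 were lower at an unadjusted p under 0.05 in edgeR, and the median log2 fold change was -0.02, against -0.01 for all tested genes. The heavy chain dnah5l (linkage group 1, 33771525 to 33815514) had 42.8, 46.3, 50.7, 47 and 42.3 CPM after rLh, against 44.2, 58.8, 82.2, 59.2 and 67.2 CPM after rFsh. Only rFsh 61 lay within the rLh range, and the log2 fold change was -0.44 ± 0.15 (edgeR adjusted p = 0.443). dnah6 followed with -0.32 ± 0.12 (edgeR adjusted p = 0.443), or -0.17 without rFsh 69. dnaaf9 averaged 163 ± 16.7 CPM after rLh and 187 ± 14.1 CPM after rFsh, a log2 fold change of -0.20 ± 0.08 (edgeR adjusted p = 0.477). The small GTPase gene of the outward transport complex, ift22, averaged 15.5 ± 3.08 CPM after rLh and 19.5 ± 2.26 CPM after rFsh (edgeR adjusted p = 0.499), and bbs9 had edgeR adjusted p = 0.488. The next smallest p were those of dnah10 (log2 fold change -0.21, edgeR adjusted p = 0.508), cfap65, a sperm flagellum gene (0.15, edgeR adjusted p = 0.518), ift57 (0.18, edgeR adjusted p = 0.519), tekt2 (-0.53, edgeR adjusted p = 0.546) and cfap20dc (-0.16, edgeR adjusted p = 0.55, and -0.09 without rFsh 64).

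The fish differed among themselves in blocks of roles. Averaged over the genes of a role, the deviation from the mean of the 15 fish gave radial spoke and central apparatus genes values of -0.46, 0.15, 0.25, 0.22 and 0.26 after rFsh, 0.02, -0.21, 0.18, 0.23 and 0.22 after rLh, and -0.05, -0.06, -0.38, -0.51 and 0.13 in saline fish. Low values thus stood in rFsh 61, rLh 64, saline 66 and saline 67. The 30 cfap genes followed the same order of fish closely (Pearson r = 0.869 and Spearman rho = 0.814 over 15 fish, r = 0.833 with group means removed, r = 0.773 without rFsh 61 and saline 66, the fish farthest from the median). The cfap genes are grouped by name, and some, such as the central apparatus gene cfap74, belong to the same structures as the radial spoke and central apparatus genes. Assembly and docking genes and tektins also followed the radial spoke genes (r = 0.881 and 0.752). These are descriptions over 15 points that share libraries and depth. rFsh 61 had the lowest level of its group in 40 of 105 genes (38.1%, against 19.1% of all tested genes), and rLh 64 in 41 (39.0%, against 26.9%).

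**Figure D3:**
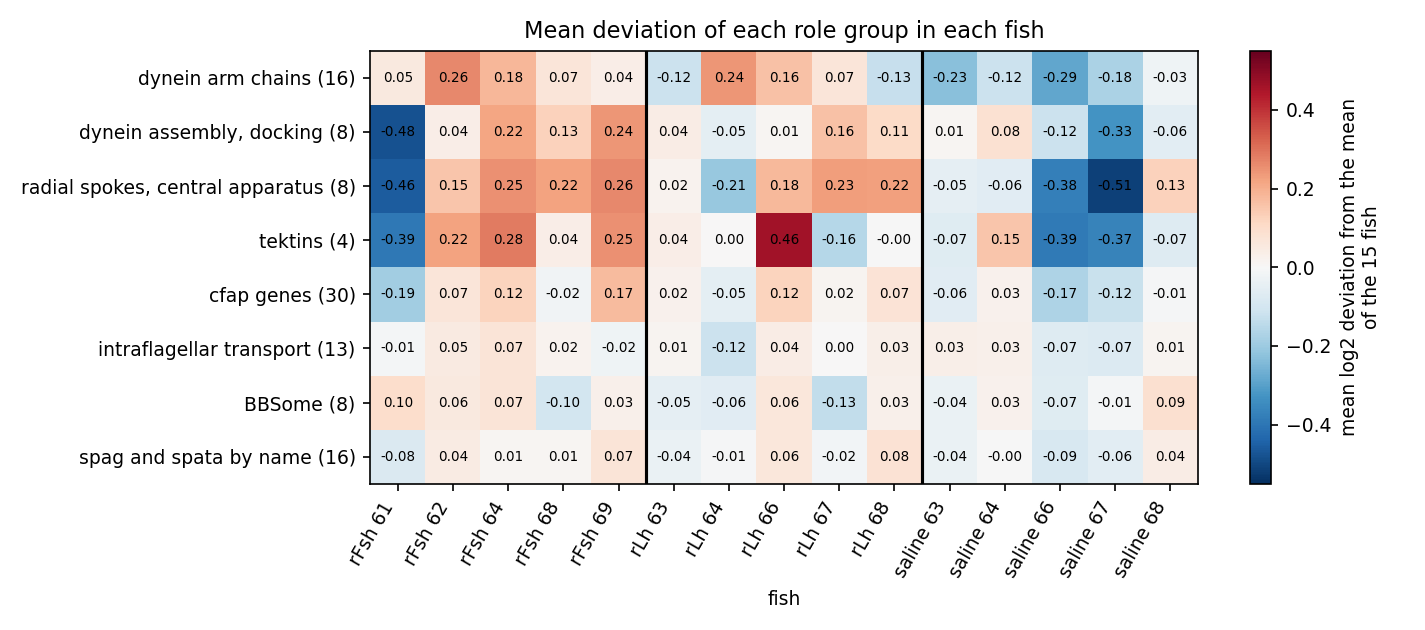
Mean log2 deviation (colour and number) of the genes of each role (rows) from the mean of the 15 fish, in each fish (columns, rFsh, rLh and saline from left to right). rFsh 61, saline 66 and saline 67 are low in the radial spoke, docking and tektin rows, with values of -0.33 or below except -0.12 for docking in saline 66, while the dynein arm chain row splits the rFsh fish (0.04 to 0.26) from saline (-0.29 to -0.03).

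The dynein heavy chains ordered the fish in another way. Their mean deviation was 0.13, 0.28, 0.27, 0.09 and 0.05 after rFsh, -0.12, 0.19, 0.14, -0.06 and -0.20 after rLh, and -0.12, -0.20, -0.17, -0.20 and -0.08 in saline fish. All rFsh fish were above all saline fish, and rLh fish covered both ranges. With the radial spoke genes the correlation was r = 0.284 over 15 fish, and -0.04 with group means removed. With the 10 spermatocyte marker genes it was r = 0.935 (rho = 0.946), r = 0.848 with group means removed, and 0.934 without rFsh 62 and saline 67. The r of 0.935 was the highest of many looked at between the roles and the marker lists. Taken singly, the 10 markers followed the heavy chains unevenly. Their r ran from 0.162 for the double-strand break gene spo11 to 0.852 for sycp2 of the synaptonemal complex, with the recombinase gene dmc1 at 0.725. The summed spermatocyte markers were 895 to 1125 CPM after rFsh, 876 to 903 CPM after rLh and 758 to 865 CPM in saline fish, with 9 of 10 positive after either hormone (51.1% of all tested genes after rFsh and 51.6% after rLh) and 6 higher at an unadjusted p under 0.05 after rFsh, against 2 after rLh (9.53% and 5.89%). Markers of other tissues also went with the heavy chains over the 15 fish. The highest r were those of 3 skeletal muscle genes (0.644), the 7 genes of the liver and plasma list (0.601) and 3 B cell genes (0.568). The muscle markers summed to 11.8 to 26.9 CPM after rFsh, 12 to 18.4 CPM after rLh and 7.67 to 18.2 CPM in saline fish, with 3 of 3 positive and 2 higher at an unadjusted p under 0.05 after rFsh, while the muscle gene mylpfa was at 0 reads in each fish and ckma and ckmb had at most 21 and 35 reads. The liver and plasma list summed to 52.4 to 68.1 CPM after rFsh, 53.8 to 70.8 CPM after rLh and 53.9 to 67.2 CPM in saline fish. Of its 7 genes, 2 were higher at an unadjusted p under 0.05 after rFsh. Those 7 include tfam, fggy and f2r, taken in through a suffix on the listed symbols tfa, fgg and f2. tfam and fggy made up most of the sum. They averaged 36.3 and 10.9 CPM after rFsh, 43.2 and 12.7 CPM after rLh, and 41.1 and 9.9 CPM in saline fish. The sum is thus not a level of plasma genes. Among fgb, fgg, tfa and f2, the highest group mean was 5.46 CPM, of f2 after rFsh. The B cell markers summed to 3.17 to 7.45 CPM after rFsh, 3.32 to 6.3 CPM after rLh and 2.27 to 5.88 CPM in saline fish. Of these 3, 2 were higher at an unadjusted p under 0.05 after rFsh and 1 after rLh (9.53% and 5.89% of all tested genes). The part of these markers in the level of the heavy chains was not tested. The radial spoke and cfap genes followed the spermatocyte markers weakly (r = 0.368 and 0.306, or 0.06 and -0.02 with group means removed).

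**Figure D4:**
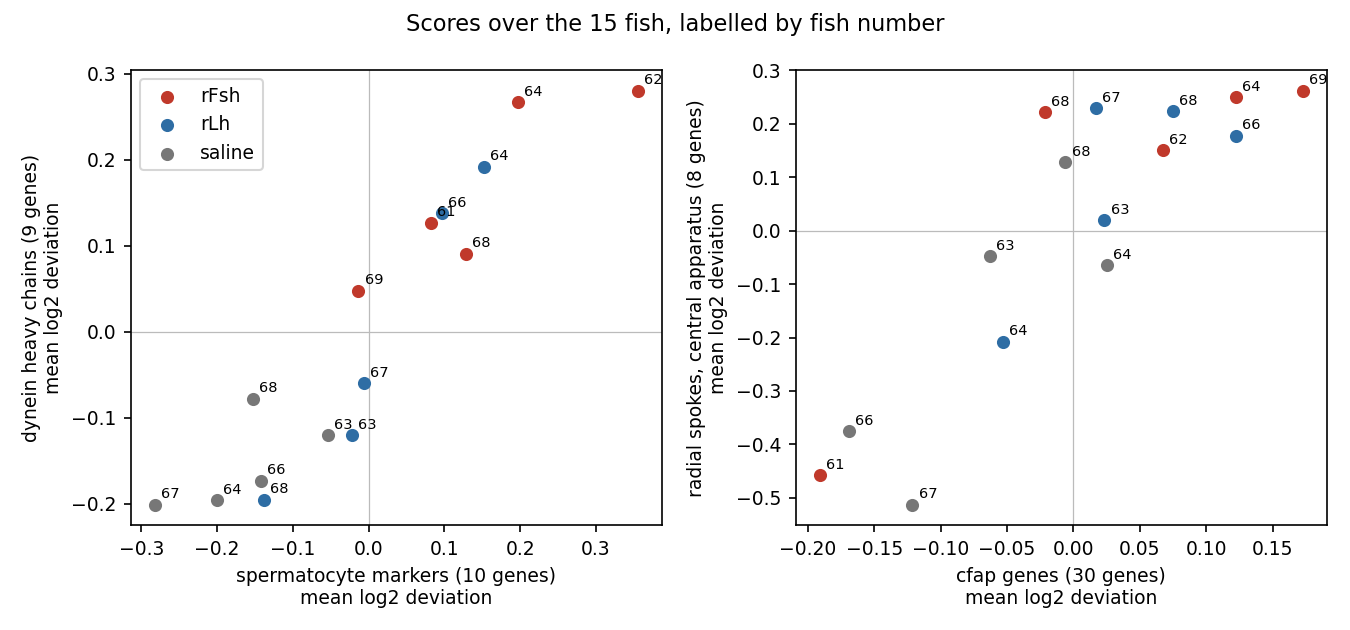
Left, mean log2 deviation of the 9 dynein heavy chains (y axis) against that of 10 spermatocyte marker genes (x axis), and right, of the 8 radial spoke and central apparatus genes (y axis) against the 30 cfap genes (x axis), each point being a fish with its number. The left panel orders the fish along a line with saline at the low end and rFsh 62 at the high end (r = 0.935), whereas in the right panel rFsh 61, saline 66 and saline 67 form the low end (r = 0.869).

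Correlations with spag17 ran in both directions. Over the 15 fish, its log2 CPM correlated above 0.5 with 19 of the other 104 genes (18.3%, against 9.83% of all tested genes) and below -0.5 with 15 (14.4%, against 9.29%), and the median r was 0.014. The most alike were spata6, needed for the sperm neck in mouse (r = 0.758), the dynein arm assembly gene cfap298 (0.740), the doublet protein genes cfap210 (0.732) and cfap77 (0.731), and the central apparatus gene cfap74 (0.730). cfap74 had 71.4, 85.7, 115, 111 and 122 CPM after rFsh, 96.8, 71.2, 93.8, 91.4 and 121 CPM after rLh, and 102, 121, 82.9, 76.2 and 107 CPM in saline fish, with rFsh 61 and rLh 64 low as for spag17. The lowest were ift88, of the outward transport complex (r = -0.732), and spag9a (-0.680). By role, dynein arm chains had a median r of -0.403 with spag17, and cfap genes 0.183. The spermatocyte markers had r = -0.62 with spag17, and the 3 tested markers of multiciliated epithelium (the ciliogenesis regulators gmnc, foxj1a and foxj1b) had r = 0.817. The 3 summed to only 5.14 to 8.93 CPM after rFsh, 4.17 to 8.39 CPM after rLh and 6.41 to 7.61 CPM in saline fish. The other symbols of that list, mcidas and ccno, were not found. The part of these markers in the level of spag17 was not tested.

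**Figure D5:**
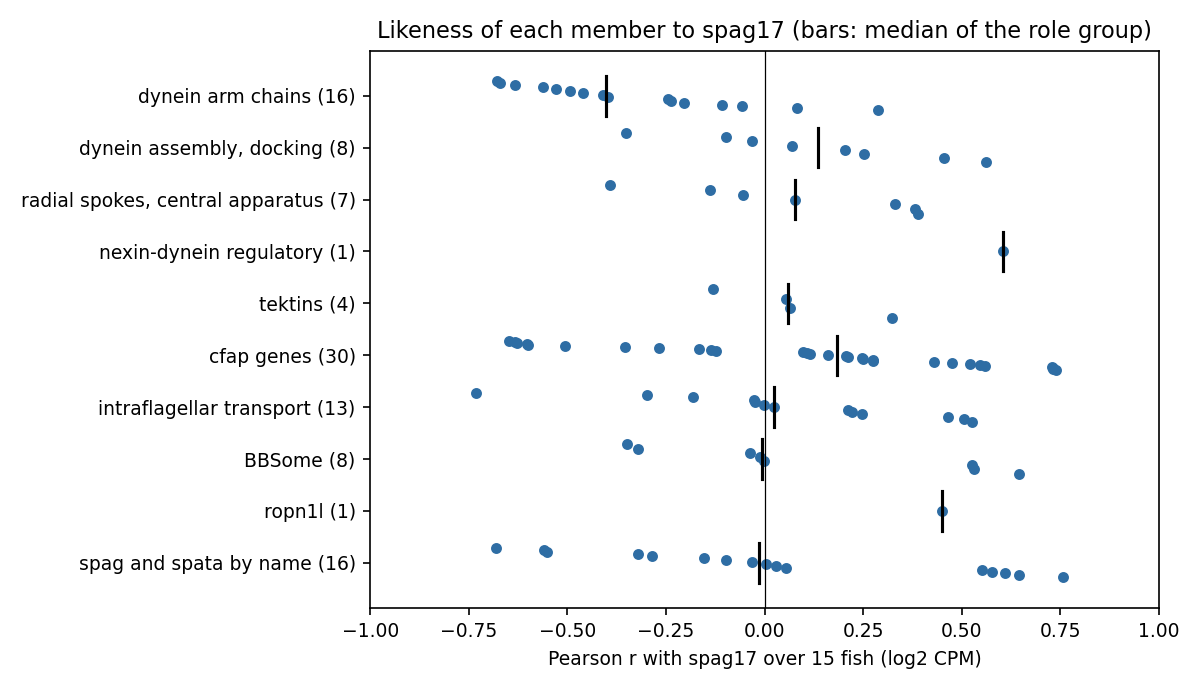
Pearson r of the log2 CPM of each gene with spag17 over the 15 fish (x axis), by role (rows, number of genes in brackets), with the median of the role as a bar. The 16 dynein arm chains centre at -0.403, and the values of the cfap genes run over both signs.

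Cilium genes outside the symbol rule were taken from lists by role, and their counts are given beside the 9.53% higher and 7.63% lower of all tested genes at an unadjusted p under 0.05 after rFsh, and the 5.89% and 7.31% after rLh. Of 26 tested genes of further axonemal parts, 5 were higher and 1 lower after rFsh, and 0 higher and 1 lower after rLh, with median log2 fold changes of 0.11 and 0.04. Of 23 transition zone and basal body genes, 0 after rFsh and 1 after rLh had an unadjusted p under 0.05. Of 13 motors and adaptors of ciliary transport, 2 were higher after each hormone, and of 11 regulators of ciliogenesis, none after rFsh and 1 higher and 2 lower after rLh. Of 8 sperm and spermatid genes, 1 was higher and 1 lower after rFsh, and 3 higher and 1 lower after rLh. No gene of these lists had an adjusted edgeR p under 0.05.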

How the data were processed

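Testis RNA of 15 fish was made into libraries with a modified SMARTseq2 protocol and sequenced as 100 bp pairs. The authors trimmed reads with Cutadapt 3.4, mapped them to the sole genome with Subread 2.0.1 and deposited counts of reads per gene made with RSubread, not normalized, in 1 table. From these counts, genes with 50 reads in at least 1 fish were kept (21227 genes), TMM factors were computed, and edgeR 4.0.16 (R 4.3.3) fitted the 3 groups together with its quasi-likelihood test and Benjamini-Hochberg adjustment over all tested genes. DESeq2 1.42.0 was the other tool. The steps were tested on simulated data. Each fish is a separate animal. Libraries of 1 group differed by more than sampling noise.

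Symbols alone chose the genes, but the genes, roles and marker lists were chosen with earlier results of these data known. Named are spag17, in each comparison the 10 genes with the smallest p, genes past an adjusted p of 0.05, in each role the 2 highest and the lowest by mean CPM (gene lengths were not used), and those most and least like spag17. Others, such as ift74, dnah1, dnah9l and dnah12, genes that a leave-out or a smaller set of fish called, and single markers, were named after their values were seen. The value of 1 spermatocyte marker on its own is not reported here. Positions come from the RefSeq gene table of the assembly IFAPA_SoseM_1. The authors' columns of mean counts, fold changes and p-values in their tables were not used as results. Alternatives were the tool, the normalization, the count minimum, 12 of the 15 fish, a replicate block, each fish left out and, added after seeing the data, an older form of the test and the set without genes grouped by the spag or spata name.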

Additional observations from a re-analysis of the deposited data

Results flagged for a closer look

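In 11 of 150 groups of 5 fish tested over the named genes, the highest or lowest fish was far from its neighbours by Dixon's test, which chance alone gives in about 1 of 20 groups. 6 of the 11 were rFsh 61, always the low fish of its group: cfap53 had 66.04 CPM in it against 132 to 169 CPM in the other rFsh fish, cfap99 32.8 against 54.7 to 62.9 CPM, ift122 40.6 against 67.8 to 74.0 CPM, ift172 51.02 against 67.5 to 74.5 CPM, spag6 9.65 against 25.1 to 31.1 CPM, and tekt1 39.7 against 73.2 to 86.0 CPM. In rFsh 69, the dynein heavy chain genes dnah10 (45.6 CPM, against 58.7 to 64.8 CPM in the other rFsh fish) and dnah2 (50.2 CPM, against 95.6 to 114 CPM) were low. ift57 was high in rFsh 62, at 12.6 CPM against 11.2 to 11.6 CPM in the other rFsh fish. Among rLh fish, dnaaf2 was low in rLh 64 (42.9 CPM, against 64.9 to 74.1 CPM) and dnaaf9 was high in rLh 68 (192 CPM, against 149 to 160.2 CPM).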

How the results depend on the processing

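After rFsh, genes past the adjusted p were 0 in edgeR, 3 in DESeq2, 10 in DESeq2 on the 12 fish, and 0 to 6 with each fish left out. Those at an unadjusted p under 0.05 were 13 to 25 (12.5% to 24.7% of all tested genes), or 21 with all fish (17.2%). The median log2 fold change was 0.06 to 0.11. After rLh, genes past the adjusted p were 12 in DESeq2 on the 12 fish and 0 to 0 with each fish left out. At an unadjusted p under 0.05 there were 23 on the 12 fish in edgeR and 28 in DESeq2 (22.4% and 24.5% of all tested genes). With each fish left out there were 9 to 23 (8.1% to 19.1%), or 15 with all fish (13.2%), with medians of 0.04 to 0.08. In rLh against rFsh, DESeq2 on the 12 fish called 1. At an unadjusted p under 0.05 there were 11 in edgeR and 14 in DESeq2 on the 12 fish (16.2% and 18.8% of all tested genes). With each fish left out there were 2 to 10 (6.39% to 17.3%), or 5 with all fish (9.91%). Leaving out each fish gave 0 to 0 past the adjusted p and medians of -0.07 to 0.01. No call changed direction, while the median between the hormones took both signs. Fish numbers recur between groups, but the labels do not tie them. Deviations of same-numbered fish mostly did not go together (r between -0.25 and 0.48), the highest r being that of rLh 63 with saline 63. The block on the fish number is therefore a check only. It left 9, 15 and 4 genes at an unadjusted p under 0.05 in the 3 comparisons (12.2%, 12.6% and 12.5% of all tested genes). It changed no call past the adjusted p. The numbers of rFsh 61, rFsh 62 and rFsh 69 occur in no other group. Under the block, both comparisons with rFsh thus rest on rFsh 64 and rFsh 68. Under the block, log2 fold changes after rFsh were 0.11 for dnai1.2, 0.20 for dnah6, 0.17 for bbs9, 0.47 for dnah7 and -0.28 for spag17, and in rLh against rFsh -0.13 for dnah6 and -0.25 for cfap20dc. Positions shared by 22 genes, the few tested spermatid markers and the unequal depth of the groups limit these values.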
